A study of Homo sapiens with 9 samples.

Results

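Transcript levels of 8 genes for transcription factors of glial and neural development were followed in U251 (U251MG), an established human glioma line. The genes were NFIB, NFIC and NFIX of the nuclear factor I (NFI) family, SOX2, SOX4, SOX9 and SOX11 of the SOX family, and ZBTB20, and every probe set that the chip's annotation gives to one of these symbols was used, 27 probe sets of 22215 tested, for 8 of 11963 genes. The 9 arrays fall into 3 groups of 3. Cells were transfected with WT1 siRNA in the reagent Oligofectamine, with a scrambled (non-targeting) siRNA in the same reagent, or with reagent alone, with either siRNA at 100 nM, so that all 3 groups share the reagent. The design text calls the arrays biological triplicates, the wells were plated in triplicate, and the labels do not say whether their numbers 1, 2 and 3 stand for separate days, nor how long after transfection RNA was taken. A probe set is a group of short probes on the chip that together give 1 value for a transcript, here a log2 expression level, so that a difference of 1 is a doubling.

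NFI proteins bind DNA as dimers at palindromes of TTGGC and GCCAA, and in the developing brain they switch on astrocyte genes such as GFAP as progenitors turn from making neurons to making glia. SOX proteins bind short AT-rich sites through an HMG box. SOX2 keeps neural progenitors, and stem-like cells of glioma, in an undifferentiated state, SOX9 starts gliogenesis and acts with NFI proteins, and SOX4 and SOX11 act in young neurons and are often present in glioma. ZBTB20 is a zinc finger repressor with a BTB domain that promotes astrocyte formation in the mouse cortex.

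NFIB and ZBTB20 had the greatest differences of the members between scrambled siRNA and reagent alone, and their group means were lowest with the scrambled siRNA. Between WT1 and scrambled siRNA the greatest log2 difference was that of SOX2 (0.75), and ZBTB20 had no call there. Against reagent alone, NFIB fell at 5 of its 7 probe sets with the scrambled siRNA and at 3 with the WT1 siRNA, and ZBTB20 fell at 3 of its 4 with the scrambled and at 2 with the WT1 siRNA. With the WT1 siRNA against the scrambled siRNA, NFIB rose at 3 of its 7 probe sets and SOX2 at 1 of 3. SOX11 rose at 1 of 3 with the WT1 siRNA against reagent, and NFIC, NFIX, SOX4 and SOX9 had no call. In RNA from whole cultures, fewer cells of a kind and less RNA per cell cannot be told apart. A call is an adjusted p under 0.05 in limma, fitted to all 22215 probe sets with the replicate number as a block, so that groups are compared within a number. All 18 calls of members (10 probe sets of 4 genes) rest on that block: without it limma called 0 of 27 in each comparison (smallest adjusted p = 0.429, with 3, 4 and 8 of 27 at an unadjusted p under 0.05 for WT1 siRNA against scrambled siRNA, WT1 siRNA against reagent, and scrambled siRNA against reagent).

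Array medians lay between 6.45 and 6.53. WT1, at its brighter probe set, had 4.76 to 5.09 with the WT1 siRNA, 5.41 to 5.89 with the scrambled siRNA and 5.89 to 6.58 with reagent. It was lower with the WT1 siRNA than with the scrambled siRNA by a log2 difference of −0.74 (adjusted p = 0.00336) and than with reagent by −1.29 (adjusted p = 0.000619), and the scrambled siRNA differed from reagent by −0.55 (adjusted p = 0.0164). These calls too were lost without the block (adjusted p = 0.672, 0.394 and 1.000). Its dimmer probe set had no call. With the WT1 siRNA the brighter one, at a mean of 4.89, was no higher than the dimmer one, at 4.94. Background limits how far a fall can be seen there. Of the markers of the labelled cells, VIM (mean 13.66), CD44 (13.09), NES (9.18) and SLC1A3 (8.27) were bright and GFAP stood at 6.95, while S100B (4.83) and AQP4 (4.39) were dim. Mean levels over marker lists of other cell types were 5.05 to 5.25 for oligodendrocytes (6 genes measured), 5.29 to 5.50 for microglia and leukocytes (6), 5.52 to 5.70 for endothelium (6) and 5.64 to 5.95 for fibroblasts and pericytes (6) over all arrays. The neuron list (6 genes) lay at 6.33 to 6.40 with the WT1 siRNA, 6.20 to 6.26 with the scrambled siRNA and 6.23 to 6.33 with reagent, and its gene GAD1 rose by 0.48 with the WT1 siRNA against the scrambled siRNA (adjusted p = 0.0265, and 0.830 without the block). The part of this in the results below was not tested.

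The shares of all probe sets called give the background for the counts of members. With the WT1 siRNA against the scrambled siRNA 3.27% of all probe sets were called (1.33% higher), and 4 of the 27 member probe sets, all higher. With the WT1 siRNA against reagent 1.25% were called (0.41% higher and 0.837% lower), and 6 of 27 members, 1 higher and 5 lower; centring each array on its median turned the split of all calls there, 91 higher and 186 lower, into 71 and 266. With the scrambled siRNA against reagent 1.09% were called (0.536% lower), and 8 of 27 members, all lower. The median difference over the member probe sets was 0.29, 0.08 and −0.10 in these comparisons, beside 0.00395, 0.0140 and 0.0106 over all probe sets. Groups of 3 arrays did not overlap for 1, 3 and 6 of the 27 (3.70%, 11.1% and 22.2%), beside 6.67%, 5.5% and 5.26% of all probe sets. Probe sets of a gene measure the same RNA and are no separate replicates, and the members were picked with earlier results of these data known. The comparisons share arrays in pairs, so their values are given side by side and not set against each other.

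**Figure D1:**
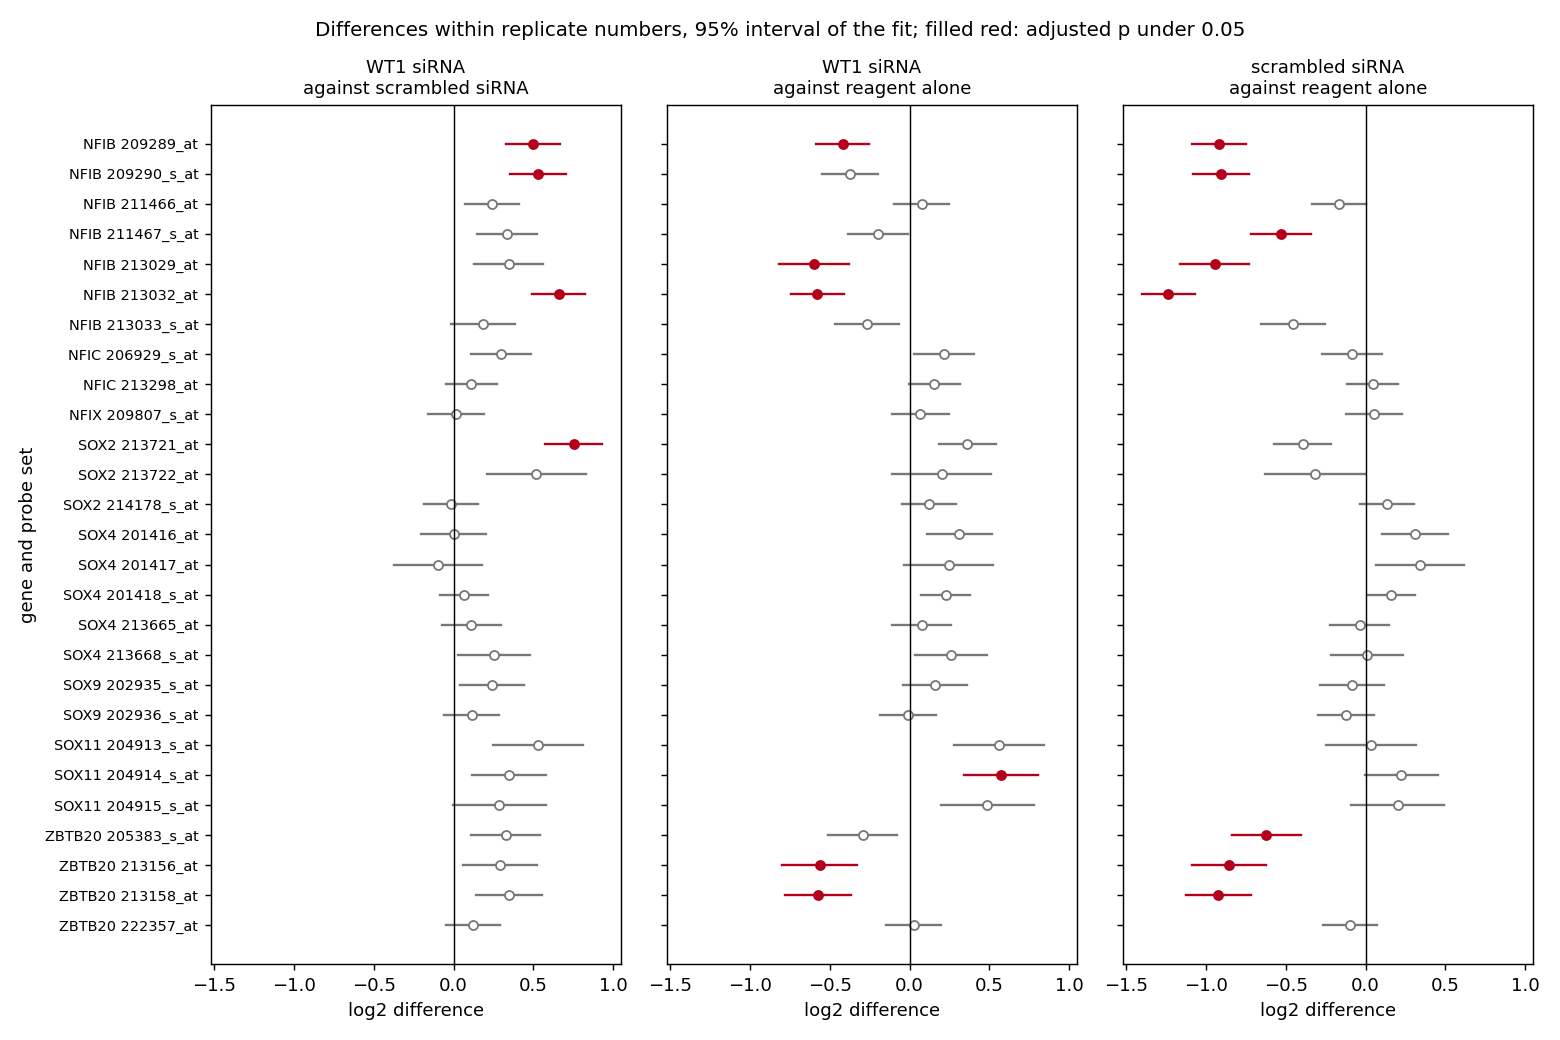
Log2 difference of each of the 27 probe sets (rows) in the 3 comparisons (panels), within replicate numbers, with the 95% interval of the fit (n = 3 per group) and filled red points for an adjusted p under 0.05. In the first panel (WT1 against scrambled siRNA) the calls lie in NFIB (3) and SOX2 (1). In the second (WT1 siRNA against reagent) they lie in NFIB (3), ZBTB20 (2) and SOX11 (1). In the third (scrambled siRNA against reagent) they lie in NFIB (5) and ZBTB20 (3).

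Promoter letters are shown for the called genes with an entry in the RefSeq promoter table (GRCh38.p14), together with NFIX, whose windows held the GC-rich letters that WT1 and EGR proteins can bind. Each run is the 250 bases before an annotated start, 5′ to 3′ on the strand of the gene, in lower case with motif letters in capitals: ACAAAG or its complement CTTTGT, a SOX-type motif, in SOX2, NFIB and ZBTB20, and in NFIX CGCCCCCGC, the complement of GCGGGGGCG, and the first letters of a SOX-type match that runs past the start. SOX2 has 1 window in the table, and for NFIB (10 windows), ZBTB20 (8) and NFIX (5) 1 with a match is shown.
SOX2 chr3:181711675-181711924 (+ strand): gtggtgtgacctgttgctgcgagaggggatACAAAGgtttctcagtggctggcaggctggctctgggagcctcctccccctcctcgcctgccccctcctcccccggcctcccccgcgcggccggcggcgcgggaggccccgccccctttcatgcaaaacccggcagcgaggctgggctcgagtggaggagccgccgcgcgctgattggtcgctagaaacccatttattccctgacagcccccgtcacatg
NFIB chr9:14308036-14308285 (- strand): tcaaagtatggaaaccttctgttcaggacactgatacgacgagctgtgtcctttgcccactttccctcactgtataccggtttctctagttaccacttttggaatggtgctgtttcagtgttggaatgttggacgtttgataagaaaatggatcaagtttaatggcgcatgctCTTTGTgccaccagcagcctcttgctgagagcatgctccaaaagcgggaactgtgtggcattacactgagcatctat
ZBTB20 chr3:115071415-115071664 (- strand): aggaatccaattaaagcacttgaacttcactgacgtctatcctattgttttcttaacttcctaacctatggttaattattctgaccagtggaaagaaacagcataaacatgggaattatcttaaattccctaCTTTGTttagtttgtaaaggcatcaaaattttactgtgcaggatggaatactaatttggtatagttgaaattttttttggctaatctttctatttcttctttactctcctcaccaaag
NFIX chr19:12995225-12995474 (+ strand): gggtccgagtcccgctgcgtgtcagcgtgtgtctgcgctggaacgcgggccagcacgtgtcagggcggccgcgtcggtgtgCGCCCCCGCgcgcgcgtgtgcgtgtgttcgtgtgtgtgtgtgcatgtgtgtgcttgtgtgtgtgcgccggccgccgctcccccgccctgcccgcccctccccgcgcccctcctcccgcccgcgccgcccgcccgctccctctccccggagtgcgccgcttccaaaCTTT

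The table had 26 windows of 300 bases (250 before and 50 after a start) for 6 of the 8 members, with none for SOX9 and SOX11. Searched on both strands, GCGGGGGCG was present in 4 of the 26, all of NFIX, against 5.07% of all 35116 windows. Some of these 4 windows overlap and hold the same match, so they are not 4 separate matches. GCGTGGGAG, another WT1-type motif, was in 0 of 26 (0.689% of all), and TTGGC followed after 5 bases by GCCAA, the full NFI palindrome, in 0 of 26 (0.0285% of all). ACAAAG was in 8 of 26 windows (16.1% of all), in NFIB, NFIX, SOX2 and ZBTB20, and ACAATG, another SOX-type motif, in 0 of 26 (10.8% of all). A match is a run of letters and not a measured site, the array values do not say which start was used, and windows of a gene can overlap.

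NFIB was the NFI gene with the greatest differences. At its probe set 213032_at the levels were 7.21, 7.40 and 7.96 with the WT1 siRNA, 6.66, 6.67 and 7.26 with the scrambled siRNA, and 7.72, 8.10 and 8.48 with reagent, for numbers 1, 2 and 3. All 3 scrambled arrays lay below all 3 reagent arrays, and within every number the scrambled array was lowest, the WT1 siRNA array between and the reagent array highest. With the scrambled siRNA NFIB fell by 1.24 on the log2 scale, to 42.4% of the level with reagent (SE 0.0739, adjusted p = 0.000305), the smallest p of all 22215 probe sets in that comparison. With the WT1 siRNA it fell by 0.58, to 66.9% of the level with reagent (adjusted p = 0.00983). With the WT1 siRNA against the scrambled siRNA it rose 1.58-fold (log2 0.66, adjusted p = 0.00348), so the level with the WT1 siRNA was above that with one control and below that with the other.

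Another bright NFIB probe set, 209289_at, had 8.75, 9.17 and 9.32 with the WT1 siRNA, 8.28, 8.57 and 8.89 with the scrambled siRNA, and 9.06, 9.71 and 9.74 with reagent. Here too the scrambled arrays lay below all reagent arrays (log2 −0.92, SE 0.0749, adjusted p = 0.00176), and NFIB rose with the WT1 siRNA against the scrambled siRNA (0.50, adjusted p = 0.00939) and fell against reagent (−0.42, adjusted p = 0.0335). At 209290_s_at, the brightest, the levels were 8.86, 9.22 and 9.67 with the WT1 siRNA, 8.26, 8.70 and 9.19 with the scrambled siRNA, and 9.12, 9.80 and 9.94 with reagent. These groups overlapped because number 1 was low throughout, while the differences within numbers ran the same way (0.53 for WT1 against scrambled siRNA, adjusted p = 0.00903, and −0.91 for scrambled siRNA against reagent, adjusted p = 0.00245). The difference between WT1 siRNA and reagent at this probe set, −0.37, did not pass (adjusted p = 0.0566).

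Probe set 213029_at gave 7.81, 8.20 and 8.81 with the WT1 siRNA, 7.52, 7.80 and 8.46 with the scrambled siRNA, and 8.46, 9.02 and 9.14 with reagent. It fell with the WT1 siRNA (−0.60, adjusted p = 0.0235) and the scrambled siRNA (−0.95, adjusted p = 0.0037) against reagent. Probe set 211467_s_at fell with the scrambled siRNA against reagent (−0.53, adjusted p = 0.0205) and 213033_s_at did not pass (−0.45, adjusted p = 0.0507), although its scrambled arrays (6.97, 6.64 and 6.72) lay below its reagent arrays (7.25, 7.17 and 7.27). The dimmest, 211466_at, lay at 4.35 to 5.09 over all arrays, where background limits what can be seen, and its differences of −0.16 to 0.24 did not pass. In the 6 probe sets of NFIB with a mean of at least 6, the order scrambled siRNA, WT1 siRNA, reagent from low to high held in 17 of 18 sets of 3 arrays with the same number. It held in all 3 numbers for 5 of these probe sets, and for 1.24% of the 12775 probe sets of that brightness on the chip.

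**Figure D2:**
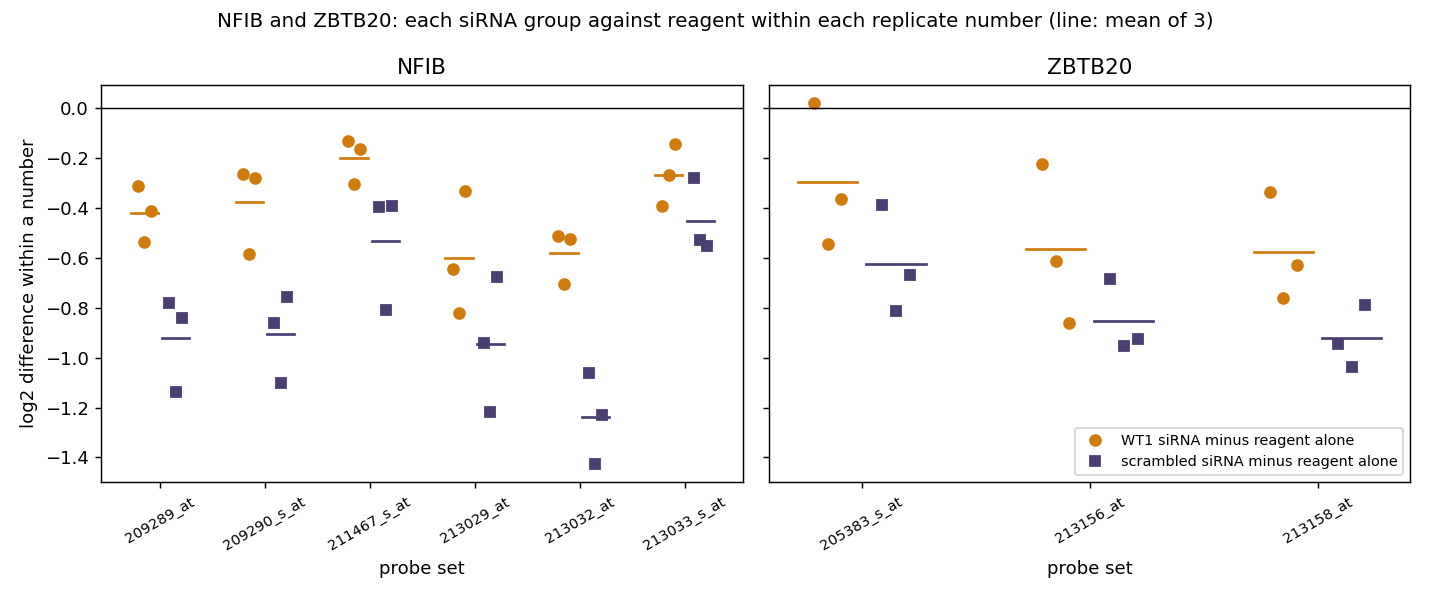
Log2 difference from the reagent array of the same number (vertical axis) for the NFIB and ZBTB20 probe sets with a mean of at least 6 (horizontal axis), with circles for the WT1 siRNA, squares for the scrambled siRNA, 1 point per number and a line at their mean. At 213032_at of NFIB the WT1 siRNA lies at a mean of −0.58 and the scrambled siRNA at −1.24.

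The NFIB calls differed in how they held when arrays were left out. Between scrambled siRNA and reagent the call at 213032_at passed in 17 of 18 alternatives, all but the fit without the block, and those at 209289_at, 209290_s_at and 213029_at in 16 each, lost also without the 3 arrays of number 2 (adjusted p = 0.0836, 0.0836 and 0.156). That of 211467_s_at was lost in 8 of 12 fits without an array or a number (adjusted p up to 0.314), namely without replicate 1 or 2 of the scrambled siRNA, replicate 1, 2 or 3 of reagent, or any whole number. It was also lost with the number as a random effect (adjusted p = 0.158). Between WT1 and scrambled siRNA 213032_at was lost without number 2 (adjusted p = 0.087). There 209289_at was lost without replicate 2 of the WT1 siRNA (0.0533), replicate 2 of the scrambled siRNA (0.0769) or number 2 (0.146), and 209290_s_at without scrambled replicates 1 (0.0528) or 2 (0.084) or number 1 (0.0532) or 2 (0.111), and with the number as a random effect (0.0838). Against reagent the calls with the WT1 siRNA held less: 213032_at was lost without WT1 siRNA replicate 2 (0.0636), reagent replicate 2 (0.0792), number 2 (0.206) or number 3 (0.0566), with the number as a random effect (0.0671) and with those groups alone (0.0602). There 213029_at was lost without WT1 siRNA replicate 2 (0.122), reagent replicate 1 (0.0897) or 2 (0.134), or number 1 (0.0867) or 2 (0.277), and 209289_at in 10 of 12 such fits (0.0518 to 0.331), all but those without WT1 siRNA replicate 1 and scrambled replicate 2. Both were also lost with the random effect (0.127 and 0.146) and with the groups compared alone (0.0993 and 0.109). Every value kept its sign.

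NFIC and NFIX, the other NFI genes on the chip with members here, had no call. NFIC at 206929_s_at had 8.12, 7.90 and 8.57 with the WT1 siRNA, 7.73, 7.60 and 8.36 with the scrambled siRNA, and 7.92, 7.84 and 8.19 with reagent. The groups overlapped, and the difference between WT1 and scrambled siRNA was 0.30 (95% interval 0.11 to 0.49, adjusted p = 0.0965), higher with the WT1 siRNA in 3 of 3 numbers. Its other probe set, 213298_at, differed by 0.11 there (−0.05 to 0.27), and between scrambled siRNA and reagent the 2 NFIC probe sets differed by −0.09 (−0.27 to 0.10) and 0.04 (−0.12 to 0.20). NFIX, with 1 probe set (209807_s_at), lay near background at a mean of 6.02, with values of 5.78 to 6.42 with the WT1 siRNA, 5.90 to 6.27 with the scrambled siRNA and 5.74 to 6.28 with reagent. Its differences were 0.01 (−0.16 to 0.19) for WT1 against scrambled siRNA, 0.07 (−0.11 to 0.25) for WT1 siRNA against reagent and 0.05 (−0.12 to 0.23) for scrambled siRNA against reagent.

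**Figure D3:**
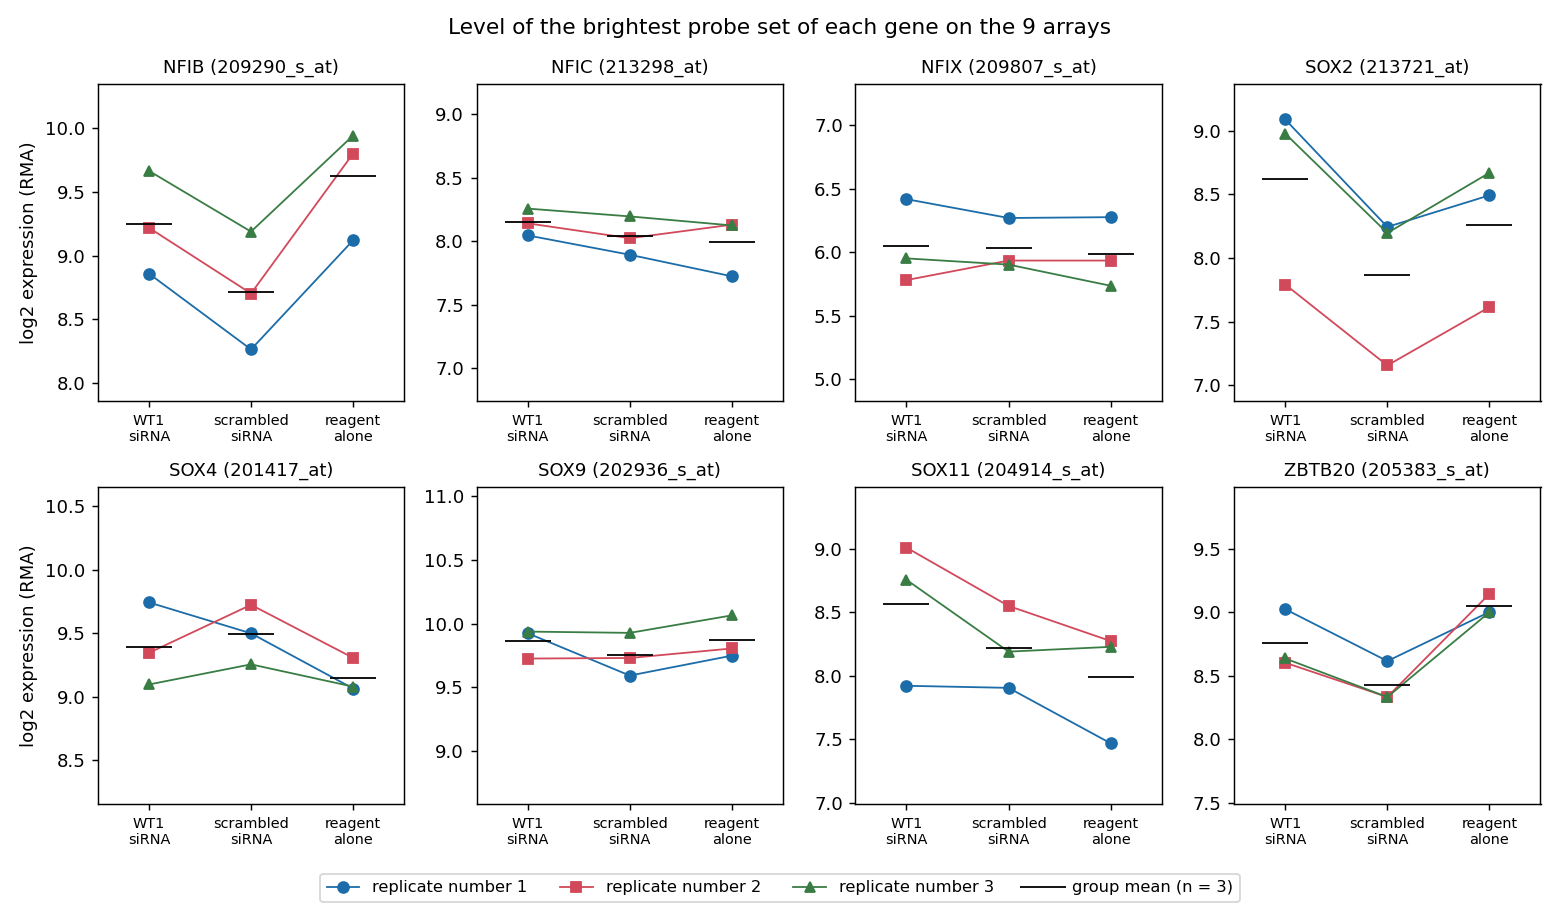
Log2 expression (vertical axis, with the same span in each panel) of the brightest probe set of each gene in the 3 groups (horizontal axis), with lines joining the arrays of a replicate number and bars at the group mean (n = 3). NFIB, SOX2 and ZBTB20 dip with the scrambled siRNA in every number, and SOX2 is low on all arrays of number 2.

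ZBTB20, the BTB zinc finger repressor, followed the same order of groups as NFIB. At 213158_at the levels were 8.28, 8.20 and 7.87 with the WT1 siRNA, 7.67, 7.92 and 7.70 with the scrambled siRNA, and 8.61, 8.96 and 8.49 with reagent. Both siRNA groups lay below all reagent arrays. ZBTB20 fell with the scrambled siRNA to 52.8% of the level with reagent (log2 −0.92, SE 0.0914, adjusted p = 0.00357) and with the WT1 siRNA to 67.2% (−0.57, adjusted p = 0.0231).

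At 213156_at the levels were 8.45, 8.14 and 7.81 with the WT1 siRNA, 7.99, 7.80 and 7.74 with the scrambled siRNA, and 8.67, 8.75 and 8.67 with reagent, again with no overlap between reagent and either siRNA group. The differences from reagent were −0.56 with the WT1 siRNA (adjusted p = 0.0366) and −0.85 with the scrambled siRNA (adjusted p = 0.00779). The brightest, 205383_s_at, had 9.02, 8.60 and 8.64 with the WT1 siRNA, 8.62, 8.33 and 8.33 with the scrambled siRNA, and 9.002, 9.14 and 9.001 with reagent. It fell with the scrambled siRNA (−0.62, adjusted p = 0.019) and did not pass with the WT1 siRNA (−0.29, adjusted p = 0.186), where the WT1 siRNA array of number 1 was 0.02 above its reagent array. Between WT1 and scrambled siRNA none of the 3 passed (0.29 to 0.35, adjusted p = 0.0783 to 0.191), all higher with the WT1 siRNA in 3 of 3 numbers, and the dim 222357_at (mean 4.47) passed nowhere. The order scrambled siRNA, WT1 siRNA, reagent held in 8 of the 9 sets of arrays with the same number over the 3 bright probe sets.

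Between scrambled siRNA and reagent the call of ZBTB20 at 213158_at was lost without number 2 (adjusted p = 0.156), and that at 213156_at without scrambled replicate 1 (0.0552) or 2 (0.0935), reagent replicate 2 (0.097) or number 2 (0.285). That at 205383_s_at was lost in 7 of 12 such fits (0.0767 to 0.314), without scrambled replicate 1, 2 or 3, reagent replicate 2 or 3, or number 2 or 3. Between WT1 siRNA and reagent 213158_at was lost in 8 of 12 (0.0544 to 0.357), all but those without WT1 siRNA replicate 1, scrambled replicates 1 and 3 and number 1, and 213156_at in 9 of 12 (0.0641 to 0.366), all but those without WT1 siRNA replicate 1, reagent replicate 1 and number 1. With those groups alone both were lost (0.0899 for 213158_at and 0.147 for 213156_at), and 213156_at also with the number as a random effect (0.0528).

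SOX2, the progenitor factor, was highest with the WT1 siRNA and lowest with the scrambled siRNA. At 213721_at the levels were 9.09, 7.79 and 8.98 with the WT1 siRNA, 8.24, 7.15 and 8.20 with the scrambled siRNA, and 8.49, 7.61 and 8.67 with reagent. Number 2 was about 1 unit below the other numbers in every group, so the groups overlapped, and within numbers the order scrambled siRNA, reagent, WT1 siRNA held in 3 of 3. SOX2 rose 1.69-fold with the WT1 siRNA against the scrambled siRNA (log2 0.75, SE 0.0797, adjusted p = 0.00282). With the WT1 siRNA against reagent it was 0.36 higher (95% interval 0.18 to 0.54, adjusted p = 0.0686) and with the scrambled siRNA against reagent 0.39 lower (difference −0.39, 95% interval −0.57 to −0.22, adjusted p = 0.0542), and neither passed.

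The dimmer SOX2 probe set 213722_at had 7.96, 5.82 and 6.49 with the WT1 siRNA, 6.91, 5.68 and 6.13 with the scrambled siRNA, and 7.53, 5.80 and 6.33 with reagent. It kept the same order of groups in 3 of 3 numbers, with a difference of 0.52 between WT1 and scrambled siRNA that did not pass (SE 0.139, adjusted p = 0.0829). The within-number differences there were 1.06, 0.14 and 0.36, greatest in number 1, where the probe set was brightest. The third, 214178_s_at, lay at 4.87 to 5.31, and its differences of −0.01 to 0.14 did not pass. Of the 12775 probe sets with a mean of at least 6, 1.75% had the order of SOX2 in all 3 numbers. The call at 213721_at was lost without number 2 (adjusted p = 0.0596) and with the number as a random effect (0.0709), and passed in the other 11 fits that left out an array or a number.

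SOX11, a factor of young neurons, had its highest group mean with the WT1 siRNA at each of its 3 probe sets. At 204914_s_at the levels were 7.92, 9.01 and 8.75 with the WT1 siRNA, 7.90, 8.55 and 8.19 with the scrambled siRNA, and 7.47, 8.27 and 8.23 with reagent. The groups overlapped, with number 1 lowest in each. SOX11 rose 1.49-fold with the WT1 siRNA against reagent (log2 0.57, SE 0.103, adjusted p = 0.0342), and its other probe sets had differences of 0.56 (204913_s_at, adjusted p = 0.071) and 0.49 (204915_s_at, adjusted p = 0.116) in 3 of 3 numbers each. Against the scrambled siRNA the 3 probe sets differed by 0.29 to 0.53 (smallest adjusted p = 0.0575), and between scrambled siRNA and reagent by 0.03 to 0.23, and none passed. The WT1 siRNA array was above the scrambled array in 2 of 3 numbers at 204915_s_at, and in 3 of 3 at the other probe sets. The call was lost in 8 of 12 fits without an array or a number (0.0637 to 0.381): WT1 siRNA replicates 2 and 3, scrambled replicate 2, reagent replicates 1, 2 and 3, and numbers 2 and 3. It was also lost with the number as a random effect (0.152) and with the groups compared alone (0.0611).

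SOX9, which starts gliogenesis, had no call. SOX9 at 202935_s_at had 9.65, 9.59 and 9.54 with the WT1 siRNA, 9.18, 9.48 and 9.40 with the scrambled siRNA, and 9.21, 9.51 and 9.58 with reagent. The WT1 siRNA arrays lay above all scrambled arrays, but the difference within numbers of 0.24 did not pass (95% interval 0.04 to 0.44, adjusted p = 0.208). Its other probe set, 202936_s_at, differed by 0.11 (−0.06 to 0.29) there and by −0.12 (−0.30 to 0.05) between scrambled siRNA and reagent.

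SOX4, like SOX11 a factor of young neurons, had no call. At 201417_at it had 9.74, 9.35 and 9.10 with the WT1 siRNA, 9.50, 9.73 and 9.26 with the scrambled siRNA, and 9.07, 9.31 and 9.08 with reagent. Here the reagent arrays were lowest in 3 of 3 numbers, and the differences from reagent of 0.24 with the WT1 siRNA (adjusted p = 0.39) and 0.34 with the scrambled siRNA (adjusted p = 0.294) did not pass. The bright probe sets 201416_at and 201418_s_at stood above reagent by 0.31 and 0.23 with the WT1 siRNA (adjusted p = 0.143 and 0.149) and by 0.31 and 0.16 with the scrambled siRNA (adjusted p = 0.178 and 0.393). Between WT1 and scrambled siRNA the 5 SOX4 probe sets differed by −0.10 to 0.25, and those below a mean of 6 (213665_at and 213668_s_at) passed in no comparison.

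Replicate numbers carried much of the spread of some members. Over the 9 arrays the median member probe set had 43.9% of its sum of squares between numbers and 33.2% between groups, and the median of all probe sets had 59.1% and 13.4%. The bright probe sets of ZBTB20 had the highest shares between groups of the members, 76.7% to 84.0%, with 9.78% to 11.4% between numbers, and NFIB at 213033_s_at had 74.6% between groups and the lowest share between numbers of the bright probe sets, 7.88%. NFIX had 87.9% between numbers and 1.68% between groups. SOX2 at 213722_at had means of 7.47, 5.77 and 6.32 in numbers 1, 2 and 3 (87.5% between numbers), and SOX2 at 213721_at had 8.61, 7.52 and 8.62. NFIB at 209290_s_at had 8.75, 9.24 and 9.60, and SOX11 at 204914_s_at had 7.76, 8.61 and 8.39, so that SOX11 and SOX2 ran opposite ways between numbers 1 and 2. A sign of RNA quality moved with the numbers too: the log2 level at the 3′ end of the ACTB control minus that at its 5′ end was 0.05 to 0.09 in number 1, 0.55 to 0.68 in number 2 and 0.26 to 0.50 in number 3. Within numbers the ACTB value was lower with the WT1 siRNA than with reagent in 3 of 3 (0.08, 0.55 and 0.26, against 0.09, 0.62 and 0.50), while that of GAPDH was higher in 3 of 3 (−0.0056, 0.184 and 0.106, against −0.0249, 0.157 and 0.0990). Their part in the differences between numbers, and in those between WT1 siRNA and reagent, was not tested.

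**Figure D4:**
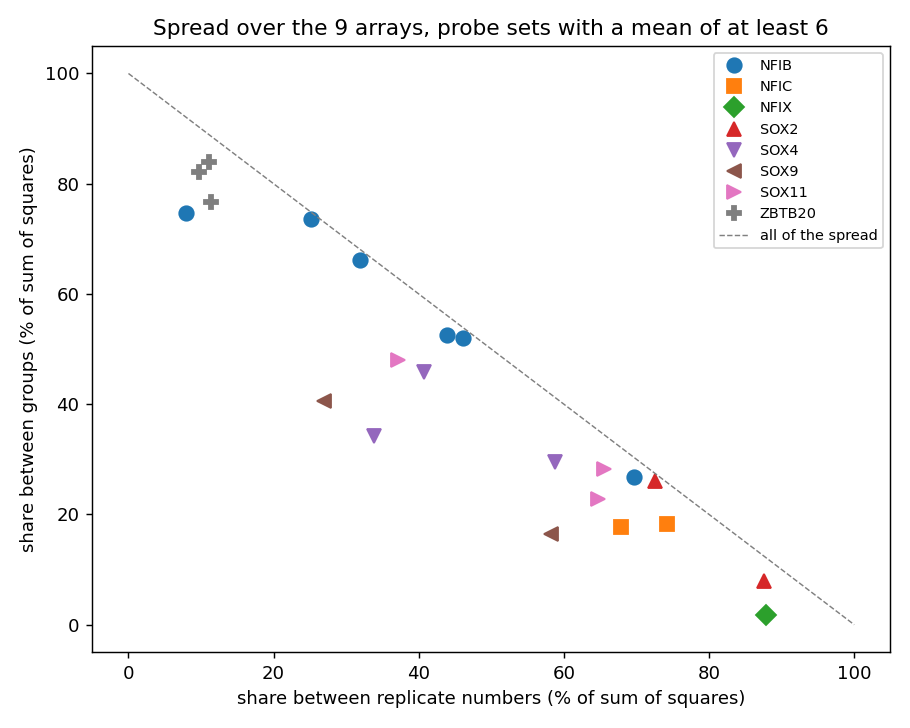
Share of each probe set's sum of squares over the 9 arrays between replicate numbers (horizontal axis, %) and between groups (vertical axis, %), for the 22 member probe sets with a mean of at least 6, 1 symbol per gene. ZBTB20 sits at the upper left (76.7% to 84.0% between groups) and NFIX at the lower right (1.68%).

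Other genes of the same programmes were described by lists, each gene by its brightest probe set. Of 13 other genes of the SOX family measured, 3 had a mean of at least 6, and SOX12, a relative of SOX4 and SOX11, rose with the WT1 siRNA against the scrambled siRNA (0.31, adjusted p = 0.0344, at a dim mean of 5.49). This was the only call in any comparison. SOX3, a close relative of SOX2, had 8.67, 8.47 and 8.55 with the WT1 siRNA, 8.33, 8.04 and 8.47 with the scrambled siRNA, and 8.38, 8.38 and 8.61 with reagent, with a difference of 0.28 between WT1 and scrambled siRNA that did not pass (adjusted p = 0.113). Of 32 gliogenesis and neural progenitor factors TEAD1, a partner of YAP, rose with the WT1 siRNA against the scrambled siRNA (0.34, adjusted p = 0.0431). ZBTB18, a transcription repressor that acts in neural development, fell with the WT1 siRNA against reagent (−0.32, adjusted p = 0.0401). None was called between scrambled siRNA and reagent, where 11 lay above 0 and 21 below. The median of this list was 0.08, 0.03 and −0.03 in WT1 against scrambled siRNA, WT1 siRNA against reagent and scrambled siRNA against reagent, beside −0.00155, 0.0101 and 0.0128 over all genes.

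Of 19 astrocyte genes linked to NFI and SOX9, 2 were called. Both were highest with the scrambled siRNA. With the WT1 siRNA both stood below reagent by differences that did not pass (−0.22 for SLC1A3, adjusted p = 0.108, and −0.16 for CLU, adjusted p = 0.265). Any part of NFIB in these levels was not tested. SLC1A3, a glutamate transporter, had 7.90, 8.22 and 7.78 with the WT1 siRNA, 8.64, 8.92 and 8.46 with the scrambled siRNA, and 8.10, 8.42 and 8.04 with reagent. It fell with the WT1 siRNA against the scrambled siRNA (−0.70, adjusted p = 0.000859) and rose with the scrambled siRNA against reagent (0.49, adjusted p = 0.00641), and the WT1 siRNA arrays lay below all scrambled arrays. CLU, the chaperone clusterin, also fell with the WT1 siRNA against the scrambled siRNA (−0.48, adjusted p = 0.00591). It rose with the scrambled siRNA against reagent (0.32, adjusted p = 0.0474). Its WT1 siRNA arrays (8.34 to 9.02) overlapped its scrambled arrays (8.92 to 9.39). GFAP, the intermediate filament of astrocytes, had 6.96, 5.36 and 8.13 with the WT1 siRNA, 5.84, 5.54 and 7.99 with the scrambled siRNA, and 6.79, 6.68 and 9.25 with reagent. It stood below reagent with the scrambled siRNA in 3 of 3 numbers by a mean of −1.11, with a wide error, and did not pass (SE 0.237, adjusted p = 0.0647). FABP7, the brain fatty acid binding protein, differed by −0.39 there (SE 0.157, adjusted p = 0.364). None of the 19 passed with the WT1 siRNA against reagent and the list's medians were 0.029, 0.0061 and 0.0051 in the 3 comparisons.

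Of 16 progenitor genes linked to SOX2, FGFR1 rose (0.38, adjusted p = 0.0238) and the Notch receptor NOTCH2 (−0.30, adjusted p = 0.0284) and its ligand JAG1 (−0.40, adjusted p = 0.0307) fell with the WT1 siRNA against the scrambled siRNA. NOTCH2 also fell against reagent (−0.37, adjusted p = 0.0235), the list's only call there, and none passed between scrambled siRNA and reagent. Another list held 12 genes of neuronal differentiation or linked to SOX4 and SOX11. Of these DPYSL3, a protein of growing axons, rose with the WT1 siRNA against the scrambled siRNA (0.59, adjusted p = 0.0195). EZH2, a histone methyltransferase, fell with the WT1 siRNA against reagent (−0.30, adjusted p = 0.0401), and there was no call between scrambled siRNA and reagent. Of 13 cartilage and matrix genes linked to SOX9, CCN2 rose with the WT1 siRNA against reagent (0.57, adjusted p = 0.0122), and there was no call in the other comparisons. Every list call was lost without the block (smallest adjusted p = 0.512, for SLC1A3 between WT1 and scrambled siRNA). The fit with the number as a random effect covered all probe sets, and its values for the list genes are not given here.

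For each member gene with a call, its called probe set with the smallest p was taken. The probe sets of other genes most like it were found by Pearson correlation over the 9 arrays after the mean of each number was taken off. Only probe sets with 1 gene symbol and a mean of at least 6 were searched, and other probe sets of the same gene were left out. The points share arrays and scaling, and these are descriptions. A correlation does not measure the size of a difference. For NFIB (213032_at) they were OBI1 (r = 0.988), NHERF1 (0.987) and TSN (0.983). Between scrambled siRNA and reagent these differed by −0.26, −0.23 and −0.55, beside −1.24 for NFIB. For ZBTB20 (213158_at) they were RRM2 (0.994), NEK9 (0.992) and LMO3 (0.985). For SOX2 (213721_at) they were NONO (0.989), CTDSP2 (0.987) and EPS8 (0.983). For SOX11 (204914_s_at) they were 2 probe sets of CD59 (0.989 and 0.986) and EHD3 (0.988).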

How the data were processed

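Per the submitters' processing notes, the authors used RMA, which corrects background, normalises arrays together and summarises probes, and the deposited values are its log2 levels. The program and probe grouping behind it are unstated in the labels. Of 22277 rows, 62 control probe sets were left out. Symbols came from the platform annotation (19064 probe sets with 1 symbol, 1043 with several, 2108 with none). The arrays' number limits the precision.

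The values were used as deposited. limma 3.58.1 in R 4.3.3 fitted all 9 arrays with 1 mean per group and the replicate number as a fixed block, two-sided, with Benjamini-Hochberg adjustment over 22215 probe sets in each comparison. The numbers are shared by the titles of all groups. Deviations from the group means correlated at 0.647 to 0.849 over all probe sets for the 9 pairs of arrays with the same number. For the 18 pairs that differ in both number and group they correlated at −0.611 to −0.031. Taking off the group means makes the deviations within a group cancel, so the negative values are no separate evidence of pairing. P-values measure only the spread between arrays that remains after each number's own level is taken off. The fit was tested on simulated data. Members, lists and the use of the block were chosen with earlier results of these data known. All member probe sets are named, and from each list the genes called, up to 6, and some members that did not pass. GFAP, FABP7 and SOX3, which had no call, were added after their values were seen. Alternatives were the fit without the block, a random block, median centring, a filter at a mean of 6, a trended robust prior, the groups of a comparison alone, and leaving out each array or number. Figures were drawn with matplotlib 3.10.9.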

Additional observations from a re-analysis of the deposited data

How the results depend on the processing

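Every value of a called member probe set kept its sign under every alternative, and of 1443 values of member probe sets over the alternatives 1295 kept their side of the threshold, 108 lost a call and 40 gained one. With no replicate block the calls over all probe sets were 4 for WT1 against scrambled siRNA, 0 for WT1 siRNA against reagent and 1 for scrambled siRNA against reagent, in place of 726, 277 and 242, and limma called 0 member probe sets in each (825, 616 and 483 of all probe sets and 3, 4 and 8 members at an unadjusted p under 0.05). With the number as a random effect they were 356, 118 and 88, with 2, 1 and 7 members. A trended robust prior gave 1091, 595 and 485, with 9, 9 and 10 members. With the groups of a comparison fitted alone there were 390, 3 and 535, with 6, 0 and 12 members. Leaving out an array or a number gave 2 to 706, 0 to 465 and 3 to 387 calls, with 0 to 7, 0 to 7 and 1 to 11 members. Without number 2 there were 2, 0 and 3 calls and 0, 0 and 1 members, and without number 3, which also leaves 6 arrays, 374, 55 and 142 calls; the cause of the low counts without number 2 was not tested. Median centring moved the split of calls for WT1 siRNA against reagent from 91 higher and 186 lower to 71 and 266. Probe sets near background, such as NFIX, SOX4 at 213665_at and ZBTB20 at 222357_at, limit what these arrays can show.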
